A study of Homo sapiens with 8 samples.

Results

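The genes of glycolysis, lactate handling, pyruvate dehydrogenase control and the pentose phosphate pathway were followed in K562 and KBM5, human leukaemia lines grown from chronic myeloid leukaemia that carry the BCR-ABL1 fusion kinase. The members were 31 genes listed by symbol, and each was read from its brightest probe set. Of these, 28 were measured among 17687 named genes, and PFKFB4, SLC16A1 and SLC16A3 were not analysed here. Total RNA was measured on 8 arrays, 1 for each line in each of 4 states. The combination was OR21 at 100 nM for 3 days followed by IM at 1000 nM for 24 hours, IM was that exposure alone, OR21 was the demethylating agent alone, and the control had neither drug. IM is imatinib, an inhibitor of the ABL kinase, and OR21 stands for OR-2100. The labels give no carrier solvent for the control, and the label of each combination array names OR21 without its dose, which comes here from the treatment protocol. No line in any state had a second array. The labels do not say whether the arrays came from separate cultures, so a p-value here reflects the spread among these 8 samples alone. With no repeat of any state, that spread is not one between repeated samples. In the model of both lines it is how far the treatment effects differ between the lines. In the model by line it is how far the effect of each drug changes with the other drug. Technical spread may be part of it and cannot be told apart.

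Glycolysis splits glucose into pyruvate through a chain of cytosolic enzymes, and yields ATP without oxygen. Pyruvate can then be reduced to lactate by lactate dehydrogenase, or enter mitochondria through the pyruvate dehydrogenase complex, which pyruvate dehydrogenase kinases switch off by phosphorylation. The pentose phosphate pathway branches off at glucose phosphate and supplies NADPH and ribose for nucleotides. Leukaemia cells driven by BCR-ABL1 are known for high glucose uptake, and MYC and the hypoxia-inducible factors are textbook activators of many glycolytic genes.

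Promoter windows are shown for 4 members that recur in the results below: LDHA, ALDOC and PDK2, each with a window that holds the letters CACGTG, known as the E-box that MYC with its partner MAX can bind, and PGK1, whose window holds the core letters of the hypoxia response element. Each is the 250 bases before the gene's start in RefSeq on GRCh38.p14, written 5′ to 3′ on the gene's strand, with the motif in capitals. For LDHA 1 of 2 windows holds CACGTG and for PDK2 1 of 3, and the window printed for each is the one that does. ALDOC and PGK1 have 1 window each. The printed windows of LDHA, ALDOC and PDK2 also hold 1, 3 and 1 matches of the hypoxia core letters, which are not in capitals. The LDHA window is chr11:18394313-18394562 on the plus strand, and that of ALDOC is chr17:28576896-28577145 on the minus strand. The PDK2 window is chr17:50095101-50095350 on the plus strand, and that of PGK1 is chrX:78103998-78104247 on the plus strand.
LDHA: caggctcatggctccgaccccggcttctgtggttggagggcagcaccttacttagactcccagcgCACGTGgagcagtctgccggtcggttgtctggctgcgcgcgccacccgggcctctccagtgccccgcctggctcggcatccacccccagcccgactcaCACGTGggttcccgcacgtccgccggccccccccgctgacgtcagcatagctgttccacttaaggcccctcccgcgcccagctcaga
ALDOC: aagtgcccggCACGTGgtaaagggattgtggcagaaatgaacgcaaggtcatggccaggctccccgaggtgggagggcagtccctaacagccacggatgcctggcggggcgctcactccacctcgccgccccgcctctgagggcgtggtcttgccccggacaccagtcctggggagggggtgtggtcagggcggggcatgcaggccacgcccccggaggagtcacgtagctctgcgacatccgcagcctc
PDK2: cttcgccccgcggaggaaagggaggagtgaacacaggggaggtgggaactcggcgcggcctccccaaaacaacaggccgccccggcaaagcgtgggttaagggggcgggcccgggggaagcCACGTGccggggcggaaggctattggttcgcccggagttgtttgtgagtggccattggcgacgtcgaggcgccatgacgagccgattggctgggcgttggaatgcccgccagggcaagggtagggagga
PGK1: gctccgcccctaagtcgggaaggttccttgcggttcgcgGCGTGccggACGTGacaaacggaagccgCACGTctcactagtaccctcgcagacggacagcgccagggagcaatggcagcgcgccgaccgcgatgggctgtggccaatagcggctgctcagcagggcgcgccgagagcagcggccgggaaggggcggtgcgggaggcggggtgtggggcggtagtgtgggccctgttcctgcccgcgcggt
The E-box CACGTG reads the same on both strands. It was found in 8 of 57 windows of the members, or 14%, and in 2228 of 35116 windows of all genes, or 6.34%. The windows printed for it were picked among members called for IM. HK2, PFKFB3, ALDOA, GAPDH and PDHB also had a window with CACGTG. Of these, PFKFB3, ALDOA and GAPDH were not called for IM over both lines or in either line. The hypoxia core was searched as ACGTG or GCGTG on both strands, leaving out matches inside CACGTG. It was found in 28 of 57 windows of the members, or 49.1%, and in 14108 of 35116 windows of all genes, or 40.2%. Of the 8 members lower with IM in each line alone, 2 had a window with CACGTG, beside 7.73% of all genes. A window with the hypoxia core was found for 6 of these 8, beside 44.4% of all genes. PGAM1 and PKM had neither. Windows were found for 29 of the 31 members, with none for PFKFB2 and SLC16A1, and genes with several starts had several windows. A match of letters is a description and not a binding site.

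Most members were bright. An array's background was the level below which 95% of its 612 negative controls fell, which lay between 161 and 263 intensity units over the 8 arrays. By this measure 19 of the 28 members were above background on all 8 arrays. HK1, HK2, PFKM, PFKFB2 and PDK2 were above it on some arrays, and PFKFB3, ENO2, PDK3 and PDK4 on none. Between 5874 and 7083 genes were above background on an array, and the array medians ran from 77.8 to 83.3. Levels of different genes are not compared, because each probe set has its own response.

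**Figure D1:**
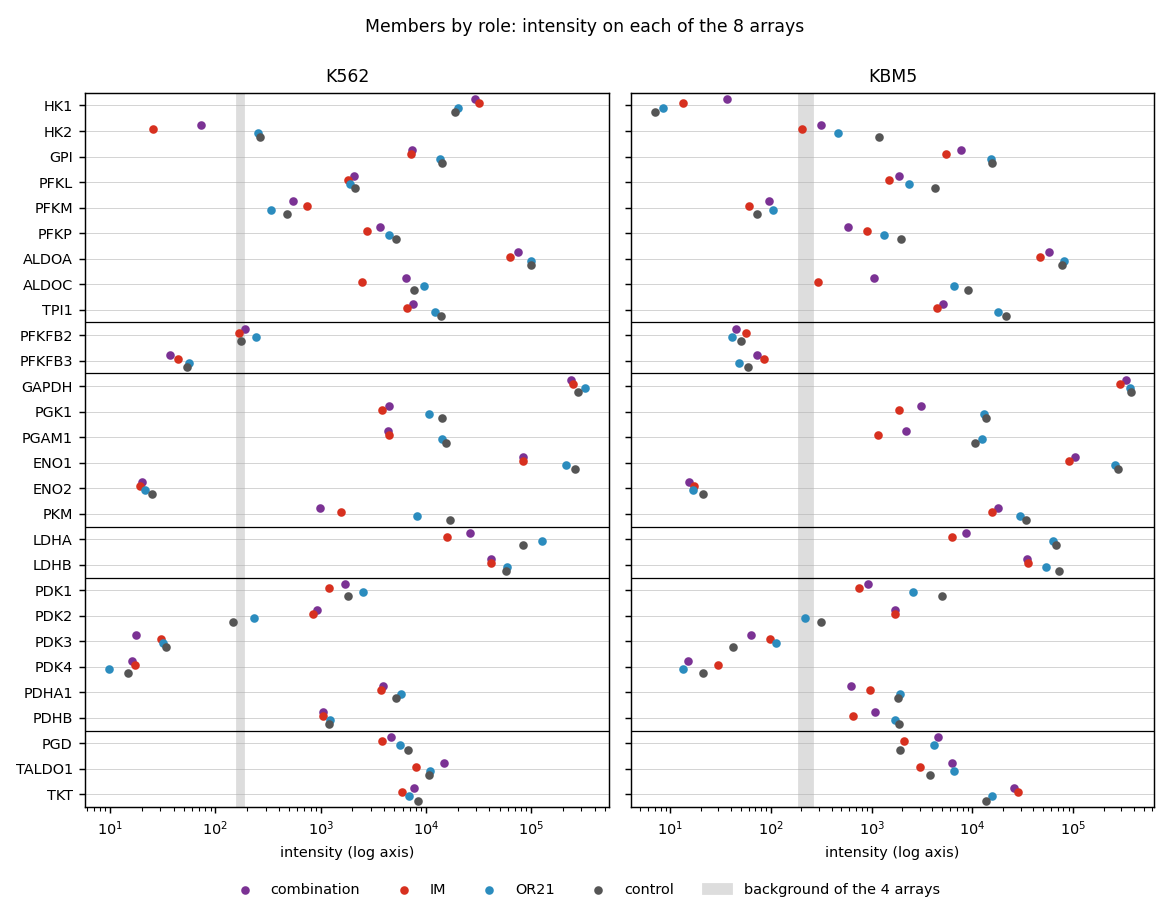
Intensity of the 28 measured members (log axis) on each of the 8 arrays, K562 left and KBM5 right, with rows in blocks by role. Colours mark the treatment and the grey band spans the background of the line's 4 arrays. LDHA, PGK1, PGAM1 and ENO1 lie lower on the combination and IM arrays than on the OR21 and control arrays of both lines, and PDK2 lies higher.

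With IM, transcripts of 8 members, spread from HK2 at the entry of glucose to LDHA at the exit as lactate, fell over both lines, and PDK2 rose. In the model of both lines, which treats the lines as repeats and compares the 4 arrays with IM to the 4 without it, 8 members fell and 1 rose at a limma adjusted p under 0.05. Over all 17687 genes tested, 4.87% fell and 2.75% rose. Only 8460 of the 17687 genes were above background on any array, against 24 of the 28 members. The shares and medians of all genes, here and below, therefore include many genes without signal, and those of detected genes alone are not given. The members' median difference was -0.605 on the log2 scale, with 22 of 28 below 0, and the median of all genes was 0.058. The 8 that fell were HK2, GPI, ALDOC, TPI1, PGK1, PGAM1, ENO1 and LDHA. The 19 members not called ranged from -2.09 for PKM to 1.08 for HK1. LDHA and PDK2 kept their calls with each of the 8 arrays left out in turn, with adjusted p up to 0.0449 and 0.0467. PGK1 kept its call in 5 of the 8 refits, PGAM1 in 4, ENO1 in 6, and HK2, GPI, ALDOC and TPI1 in 1 each, with adjusted p up to 0.175 for ALDOC. The number called was 8 without the K562 control, 6 without K562 IM and 5 without K562 OR21 or the K562 combination. It was 4 without the KBM5 control and 3 without KBM5 OR21, KBM5 IM or the KBM5 combination.

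In each line on its own, where the IM effect is the mean of 2 array pairs (combination minus OR21 and IM minus control), 8 members fell and 1 rose in K562. The share over all genes in K562 was 8.05% lower and 5.34% higher. In KBM5, 14 members fell and 3 were called higher, and the share over all genes was 10.6% lower and 10.8% higher. The 3 were HK1, PDK2 and TKT, and HK1 was below background on all 4 KBM5 arrays. The 8 that fell in K562 were all among the 14 of KBM5: HK2, GPI, TPI1, PGK1, PGAM1, ENO1, PKM and LDHA. Of all genes, 3.68% fell in both lines and 1.79% rose in both. The members' median was -0.517 in K562 and -0.874 in KBM5, against 0.068 and 0.03 for all genes. The IM effect itself differed between the lines for 3 members, 2 of them with a higher value in K562 (ALDOC, PDK1) and 1 with a lower value (PKM), where 4.9% of all genes were higher and 5.25% lower. In K562 the count of 9 dropped to 3 without the control or the IM array, and in KBM5 the count of 17 dropped to 11 without the control or the IM array.

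**Figure D2:**
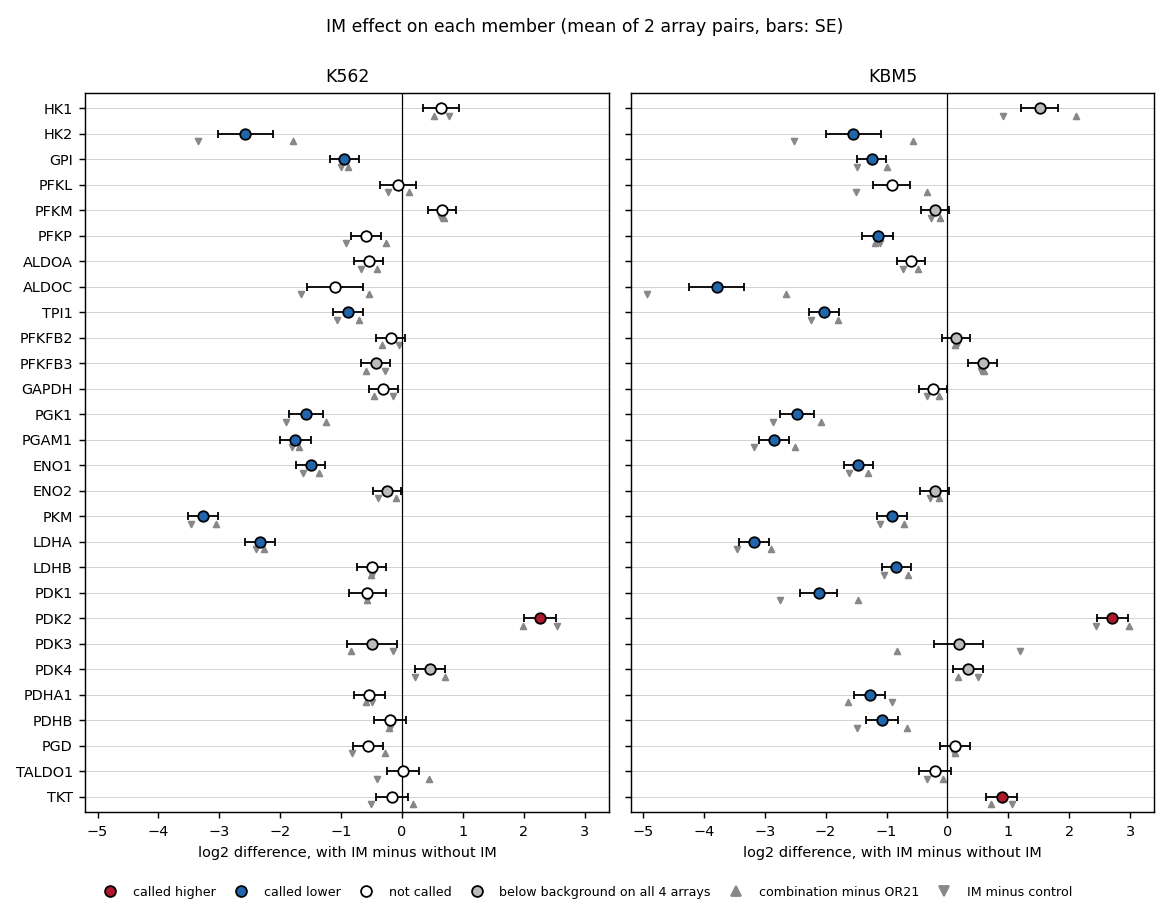
Log2 difference with IM minus without IM for each member, K562 left and KBM5 right. Circles are means of 2 array pairs with their SE, triangles are the single pairs, and fill marks the call, with grey for members below background on all 4 arrays of the line. In K562 the called falls run from -0.89 (TPI1) to -3.26 (PKM), in KBM5 from -0.84 (LDHB) to -3.79 (ALDOC).

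Markers of cell state also differed between arrays with and without IM, and their part in these results was not tested. In K562 the summed intensity of 6 measured erythroid markers, all 6 of them detected, was 610222 with the combination, 592842 with IM, 245140 with OR21 and 96675 in the control. HBZ and ALAS2 held most of it, at 467477 and 75928 with IM. GATA1 was 10621 with IM and 10445 in the control. The IM effect in K562 was above 0 for 5 of the 6 and below 0 for 1, GATA1. In KBM5 the same sum was 1779 with the combination, 2402 with IM, 19985 with OR21 and 19835 in the control. Only TFRC was above background there, with GATA1, KLF1, EPOR, HBZ and ALAS2 below it on all 4 arrays. The sum of 8 measured myeloid markers in KBM5, all 8 of them detected, was 333956 with the combination, 352022 with IM, 142359 with OR21 and 68509 in the control. LYZ alone was 254951 with IM and 12342 in the control. The IM effect in KBM5 was above 0 for 6 of the 8 and below 0 for 2, PRTN3 and MPO. In K562 the myeloid sum was 1784 with the combination, 1942 with IM, 3082 with OR21 and 2577 in the control, and MPO, PRTN3, AZU1, ANPEP, CSF3R and CEBPA were below background on all 4 arrays. The sum of 5 proliferation markers in KBM5 was 4777 with the combination and 3060 with IM, against 26518 with OR21 and 26106 in the control. In K562 that sum was 24725 with the combination and 25942 with IM, against 32758 with OR21 and 28830 in the control. Of 7 lymphoid markers, 1 was detected in each line (CD3D in K562, CD79A in KBM5), with sums between 427 and 1138. Of 5 epithelial markers, EPCAM and KRT19 were detected in K562 and none in KBM5. In bulk RNA, fewer cells of a type and less RNA per cell cannot be told apart.

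At the entry of glucose into the chain, HK2 fell with IM and HK1 was detected in K562 alone. HK1 and HK2 phosphorylate glucose and so trap it in the cell. HK2 intensity in K562 was 72.4 with the combination and 25.8 with IM, against 251.8 with OR21 and 262.5 in the control. KBM5 gave 312.6 with the combination and 202.9 with IM, against 463.6 with OR21 and 1167.5 in the control. Both K562 arrays with IM were below background, the 2 groups of arrays did not overlap in either line, and KBM5 with IM was above background on the combination array alone. HK2 fell by 2.06 ± 0.33 on the log2 scale (SE, here and below) in the model of both lines, with an adjusted p of 0.0192, a size that is not exact with 1 of 4 IM arrays above background. In K562 the fold is a bound, at least 1.40-fold lower (adjusted p = 0.00434), and in KBM5 HK2 was 2.92-fold lower (adjusted p = 0.0326), a size that is not exact with its IM array below background. HK1 was 29174 and 31871 in K562 with the combination and IM, against 20354 with OR21 and 18757 in the control, a difference of 0.64 ± 0.30 that was not called (adjusted p = 0.2). In KBM5, HK1 lay between 7.0 and 36.7 on all 4 arrays, all below background, so its called difference of 1.51 ± 0.30 there is given no fold. Over both lines HK2 kept its call only without KBM5 OR21, with values between -2.44 and -1.68 and adjusted p up to 0.0776. In K562 it was lost without the control or IM array (adjusted p up to 0.157) and in KBM5 likewise (a difference of -0.57, adjusted p up to 0.481).

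GPI, which turns glucose phosphate into fructose phosphate, was 7297 and 7127 in K562 with the combination and IM, against 13469 with OR21 and 14302 in the control. In KBM5 it was 7673 with the combination and 5519 with IM, against 15297 with OR21 and 15513 in the control. All 4 arrays with IM were lower than the 4 without it. The fall was 1.92-fold in K562 (adjusted p = 0.0277) and 2.37-fold in KBM5 (adjusted p = 0.00417). The K562 call was lost when any 1 of the K562 arrays was left out (adjusted p up to 0.328), and the KBM5 call without the KBM5 control or IM array (up to 0.0546).

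Phosphofructokinase, the main control point of the chain, was measured through its liver (PFKL), muscle (PFKM) and platelet (PFKP) subunit genes. PFKP in KBM5 was 576 with the combination and 906 with IM, against 1319 with OR21 and 1944 in the control, 2.22-fold lower with an adjusted p of 0.00785. The K562 values were 3695 with the combination and 2760 with IM, against 4455 with OR21 and 5205 in the control, which was not called (-0.59 ± 0.25, adjusted p = 0.161). PFKL lay between 1483 and 4209 over the 8 arrays, in KBM5 just missed the threshold at -0.92 ± 0.30 (adjusted p = 0.0515) and was -0.06 ± 0.30 in K562 (adjusted p = 0.93). PFKM was not called in either line, at 0.66 ± 0.23 in K562 and, below background on all 4 arrays, -0.20 ± 0.23 in KBM5. In K562 PFKM was 542.5 with the combination and 741 with IM, against 337 with OR21 and 477 in the control. PFKFB2 and PFKFB3 make and degrade the fructose bisphosphate that stimulates phosphofructokinase. Neither was called for IM in either line, PFKFB3 was below background on all 8 arrays (37 to 85.9), and PFKFB2 was above it only on 3 K562 arrays (168.5 to 240.2 in K562, 41.1 to 56 in KBM5).

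Aldolase cuts the hexose into triose phosphates, and TPI1 interconverts the products. ALDOC, the brain-type aldolase gene, was 1050 with the combination and 294 with IM in KBM5, against 6599 with OR21 and 8965 in the control. K562 gave 6481 with the combination and 2450 with IM, against 9487 with OR21 and 7730 in the control. The KBM5 arrays with IM stood far below those without it, and in K562 the combination array lay close to the control. ALDOC fell 13.8-fold in KBM5 (-3.79 ± 0.46, adjusted p = 0.000228), was not called in K562 (-1.10 ± 0.46, adjusted p = 0.151), and the difference between the lines was itself called, at 2.69 ± 0.64 (K562 minus KBM5, adjusted p = 0.0256). The call of that difference was lost without K562 OR21, the K562 combination, KBM5 control or KBM5 IM, with values between 1.55 and 3.83 and adjusted p up to 0.186. The fall in KBM5 kept its call throughout, at -4.93 without KBM5 OR21 or the KBM5 combination and -2.65 without the KBM5 control or KBM5 IM. ALDOA, the main aldolase gene of most tissues, was 74598 and 62489 in K562 with the combination and IM, against 99042 with OR21 and 100168 in the control. In KBM5 ALDOA was 57685 with the combination and 47107 with IM, against 80260 with OR21 and 77786 in the control. Its 8 arrays split by IM without overlap, but it was not called (-0.57 ± 0.16 over both lines, adjusted p = 0.0814). TPI1 was 7478 and 6607 in K562 with the combination and IM, against 12235 with OR21 and 13847 in the control. The KBM5 values were 5134 with the combination and 4487 with IM, against 17808 with OR21 and 21296 in the control. The groups did not overlap in either line, and TPI1 was 1.85-fold lower in K562 (adjusted p = 0.038) and 4.06-fold lower in KBM5 (adjusted p = 0.000242). The K562 call of TPI1 was lost when any 1 of the K562 arrays was left out (adjusted p up to 0.461), and the KBM5 call was kept.

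The steps from triose phosphate to pyruvate held 6 members, of which 3 fell in the model of both lines, and 4 in each line alone. Over all genes the shares that fell were 4.87% over both lines, 8.05% in K562 and 10.6% in KBM5. PGK1, which makes the first ATP of the chain, was 4467 and 3816 in K562 with the combination and IM, against 10656 with OR21 and 14321 in the control. KBM5 gave 3080 with the combination and 1877 with IM, against 12927 with OR21 and 13661 in the control. The arrays with IM were lower in each line, by 2.99-fold in K562 (adjusted p = 0.00448) and 5.53-fold in KBM5 (adjusted p = 0.000159). PGAM1, the phosphoglycerate mutase that moves the phosphate group, was 4355 and 4496 in K562 with the combination and IM, against 14136 with OR21 and 15659 in the control. In KBM5 it was 2180 with the combination and 1157 with IM, against 12431 with OR21 and 10526 in the control. PGAM1 was 3.36-fold lower with IM in K562 (adjusted p = 0.00149) and 7.20-fold lower in KBM5 (adjusted p = 3.69e-05), again with no overlap between arrays with and without IM. ENO1, the enolase that makes phosphoenolpyruvate, was 83325 and 83363 in K562 with the combination and IM, against 213546 with OR21 and 258679 in the control. The KBM5 values were 103920 with the combination and 90591 with IM, against 257164 with OR21 and 277673 in the control. ENO1 was 2.82-fold lower in K562 (adjusted p = 0.00256) and 2.75-fold lower in KBM5 (adjusted p = 0.00142), and the difference between lines was -0.03 ± 0.34 (adjusted p = 0.971). In KBM5 PGK1, PGAM1 and ENO1 kept their calls with each array left out, and in K562 all 3 lost them without the control or IM array (adjusted p up to 0.176 for PGK1, 0.0602 for PGAM1 and 0.108 for ENO1).

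GAPDH, the oxidising step of the chain and a common reference gene, was not called for IM. It was 236653 and 249211 in K562 with the combination and IM, against 325026 with OR21 and 277188 in the control. GAPDH in KBM5 was 336068 with the combination and 294610 with IM, against 369539 with OR21 and 371284 in the control. Its difference over both lines was -0.27 ± 0.17 (adjusted p = 0.389). ENO2, the neuronal enolase, was below background on all 8 arrays (15.2 to 25).

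PKM, the pyruvate kinase gene of most proliferating cells, responded differently in the 2 lines. In K562 its intensity was 994 with the combination and 1546 with IM, against 8299 with OR21 and 17054 in the control. KBM5 gave 17928 with the combination and 15652 with IM, against 29363 with OR21 and 33808 in the control. IM lowered it in each line without overlap, 9.60-fold in K562 (-3.26 ± 0.25, adjusted p = 4.26e-05) and 1.88-fold in KBM5 (-0.91 ± 0.25, adjusted p = 0.0225). The difference between the lines was -2.35 ± 0.35 (K562 minus KBM5, adjusted p = 0.00219) and kept its call with each array left out. The K562 fall did too, and the KBM5 fall was lost without the KBM5 control or IM array (adjusted p up to 0.178). The model of both lines, which assumes the same effect in each, did not call PKM (-2.09 ± 0.51, adjusted p = 0.0557). PKLR, the liver and red cell pyruvate kinase gene and no member, was 6590 with the combination and 3964 with IM in K562, against 671 with OR21 and 133 in the control, which was below background. In KBM5, PKLR was below background on all 4 arrays (between 30.1 and 51.5). PKLR was 17.1-fold higher with IM in K562 (4.10 ± 0.36, adjusted p = 0.000116), a size that is not exact with its control below background, and the difference between the lines was 4.47 ± 0.51 (adjusted p = 0.000668). In K562 these values stand beside the erythroid marker sums above, whose part in them was not tested.

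**Figure D3:**
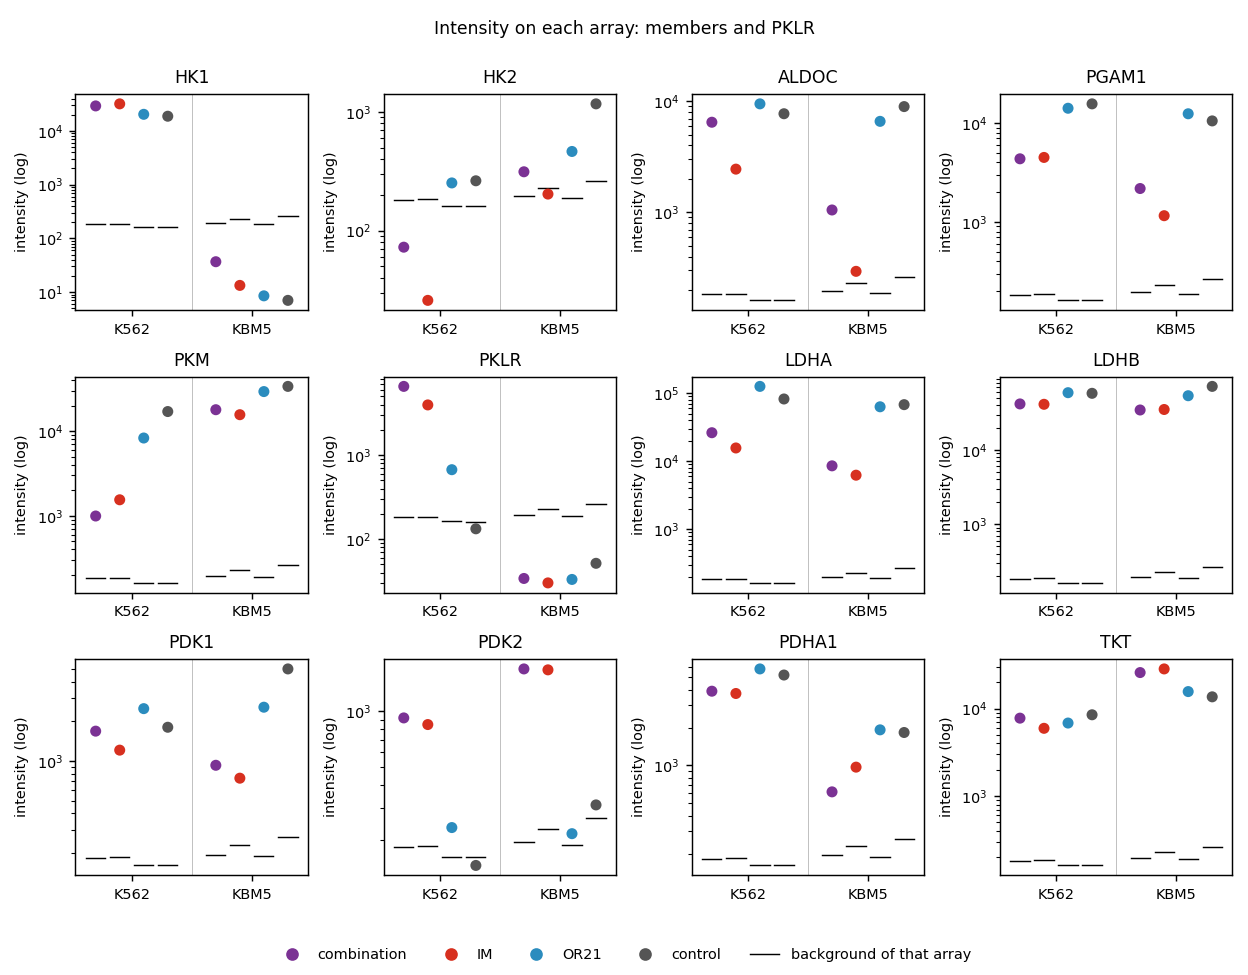
Intensity on each array (log axis, own scale per panel) for 11 members and PKLR, with K562 left of KBM5 and each array's background as a short line. HK1 in KBM5 lies below background on all 4 arrays, PKM drops further with IM in K562 than in KBM5, and PKLR is above background in K562 alone.

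LDHA, the lactate dehydrogenase subunit that favours pyruvate reduction, had the largest called fall of any member in the model of both lines. In K562 it was 26319 with the combination and 15683 with IM, against 126751 with OR21 and 82676 in the control. In KBM5 it was 8553 with the combination and 6228 with IM, against 63446 with OR21 and 68215 in the control. All 4 arrays with IM were below all 4 without it, in both lines. LDHA fell by 2.75 ± 0.25 over both lines (adjusted p = 0.00565), 5.04-fold in K562 (adjusted p = 0.000258) and 9.01-fold in KBM5 (adjusted p = 1.91e-05). LDHB, the subunit that favours lactate oxidation, was 41810 and 41332 in K562 with the combination and IM, against 59293 with OR21 and 58131 in the control. The KBM5 values were 34635 with the combination and 35174 with IM, against 53956 with OR21 and 72090 in the control. It was called in KBM5, 1.79-fold lower (adjusted p = 0.0285), and not in K562 (-0.50 ± 0.24, adjusted p = 0.213), while the difference between lines was 0.34 ± 0.33 (adjusted p = 0.619). LDHA kept its call in each line with every array left out in turn. The KBM5 call of LDHB was lost when any 1 of the K562 arrays, the KBM5 control or KBM5 IM was left out (adjusted p up to 0.211).

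Of the pyruvate dehydrogenase kinases, PDK2 rose with IM in both lines and PDK1 fell in KBM5. PDK2, a widely expressed kinase of the complex, was 922 with the combination and 849 with IM in K562, against 234 with OR21 and 145 in the control, the last below background. KBM5 gave 1703 with the combination and 1683 with IM, against 216 with OR21 and 310 in the control. Every array with IM was above every array without it. PDK2 rose by 2.49 ± 0.24 over both lines (adjusted p = 0.00626) and was 6.54-fold higher in KBM5 (adjusted p = 5.91e-05). In K562 it was 4.80-fold higher (adjusted p = 0.000424), a size that is not exact because the control array was below background. PDK1, a kinase gene known as a target of hypoxia-inducible factors, was 928 with the combination and 741 with IM in KBM5, against 2563 with OR21 and 5005 in the control. K562 gave 1686 with the combination and 1209 with IM, against 2499 with OR21 and 1805 in the control. PDK1 fell 4.32-fold in KBM5 (-2.11 ± 0.30, adjusted p = 0.00071) and was not called in K562 (-0.57 ± 0.30, adjusted p = 0.268). The difference between the lines was 1.54 ± 0.43 (adjusted p = 0.0488), close to the threshold, and its call was lost when any 1 of the K562 arrays, the KBM5 control or KBM5 IM was left out (values between 0.89 and 2.18, adjusted p up to 0.217).

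PDHA1 and PDHB encode the catalytic subunit pair of the dehydrogenase itself. PDHA1 in KBM5 was 618 with the combination and 970 with IM, against 1917 with OR21 and 1827 in the control, and in K562 it was 3885 with the combination and 3725 with IM, against 5836 with OR21 and 5220 in the control. PDHB in KBM5 was 1078 with the combination and 659 with IM, against 1700 with OR21 and 1849 in the control. Both were called lower in KBM5, PDHA1 2.42-fold (adjusted p = 0.00493) and PDHB 2.10-fold (adjusted p = 0.0144), and neither in K562, where PDHA1 differed by -0.54 ± 0.26 and PDHB by -0.20 ± 0.26. Their differences between lines were not called (PDHA1 0.74 ± 0.36, PDHB 0.87 ± 0.37). The KBM5 call of PDHA1 was lost without KBM5 OR21 or the KBM5 combination (adjusted p up to 0.0686), and that of PDHB without the KBM5 control or KBM5 IM (up to 0.198). In K562 PDHB was 1053 with the combination and 1059 with IM, against 1222 with OR21 and 1209 in the control. PDK3 (17.7 to 111) and PDK4 (9.8 to 29.9), the remaining kinases, were below background on all 8 arrays.

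In the pentose phosphate pathway 1 of 3 members was called for IM, in KBM5, where 10.8% of all genes were higher and 10.6% lower. TKT, the transketolase that shuttles carbon between sugars, was 25767 with the combination and 28354 with IM in KBM5, against 15621 with OR21 and 13605 in the control. In K562 it was 7765 with the combination and 5942 with IM, against 6826 with OR21 and 8485 in the control, with overlap. TKT was 1.85-fold higher in KBM5 (adjusted p = 0.0322), -0.16 ± 0.26 in K562, and the difference between the lines was not called (-1.05 ± 0.37, adjusted p = 0.104). The KBM5 call of TKT was lost when any 1 of the KBM5 arrays was left out (adjusted p up to 0.203). PGD, the phosphogluconate dehydrogenase that yields NADPH, and TALDO1, the transaldolase, were not called for IM in either line. PGD in K562 was 4683 with the combination and 3803 with IM, against 5710 with OR21 and 6720 in the control, a difference of -0.55 ± 0.24 (adjusted p = 0.178).

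**Figure D4:**
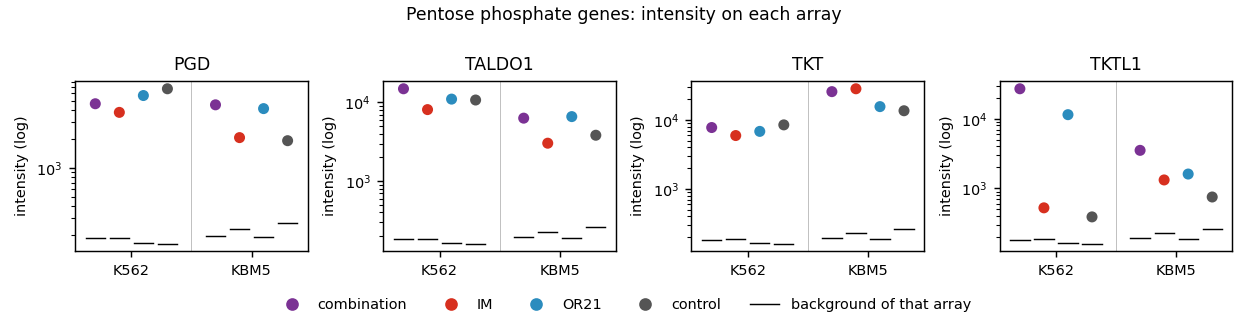
Intensity on each array (log axis, own scale per panel) for PGD, TALDO1, TKT and the non-member TKTL1, K562 left of KBM5, with each array's background as a short line. TKTL1 lies highest on the 2 arrays with OR21 in K562, and PGD and TALDO1 lie higher on the arrays with OR21 in KBM5.

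The OR21 effect, from the arrays with OR21 against those without it, passed the threshold for no member. In the model of both lines 0 of 28 members and 0% of all genes were called with limma, and 2 members, PDK4 and TALDO1, had an unadjusted p under 0.05. In K562 no member was called, where 0.0905% of all genes were, and in KBM5 none, where 0.543% were. In K562, 2 members had an unadjusted p under 0.05, PKM (-0.84 ± 0.25, adjusted p = 0.686) and LDHA (0.68 ± 0.25, adjusted p = 0.884). In KBM5, 7 members had an unadjusted p under 0.05, and PGD came closest. PGD was 4564 with the combination and 4165 with OR21 in KBM5, against 2070 with IM and 1922 in the control, a difference of 1.13 ± 0.24 (adjusted p = 0.0871). TALDO1 in KBM5 was 6303 with the combination and 6595 with OR21, against 3029 with IM and 3824 in the control (0.92 ± 0.27, adjusted p = 0.198). In K562 TALDO1 was 14886 with the combination and 11002 with OR21, against 8094 with IM and 10713 in the control. In both lines the combination array of TALDO1 was above the IM array, and the difference over both lines was 0.97 ± 0.28 with an adjusted p that rounds to 1. No member was called for a difference of the OR21 effect between lines, where 0.102% of all genes were, and 3 had an unadjusted p under 0.05.

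No member was called for the combination against any single arm. Against control 0.198% of all genes and 0 members were called, with 13 members at an unadjusted p under 0.05. The members nearest the threshold were PDK2 (2.56 ± 0.35, adjusted p = 0.0549), LDHA (-2.32 ± 0.35, adjusted p = 0.0628) and ENO1 (-1.53 ± 0.23, adjusted p = 0.0628). Against OR21 alone 0.221% of all genes and 0 members were called, with 11 members at an unadjusted p under 0.05. Against IM alone 0% of genes were called, 605 genes had an unadjusted p under 0.05, and 19 of 28 members lay above 0, beside 8453 of 17687 genes. The differences between the combination and IM included 1.62 ± 0.78 for ALDOC, which was above background on all 4 of these arrays. For the interaction of the drugs 0% of genes were called, 274 genes had an unadjusted p under 0.05, and 22 of 28 members lay above 0, beside 8918 of 17687 genes. These comparisons share arrays with each other and with the IM and OR21 effects above.

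The lines also differed in which isoform genes were above background. Over the 4 treatments 7 members were higher in K562 and 4 lower, and over all genes 17% were higher and 15% lower. HK1 was at least 113-fold higher in K562 (adjusted p = 3.56e-06), where its 4 arrays lay between 18757 and 31871. PFKM was at least 2.32-fold higher in K562, with all 4 arrays between 337 and 741, against 60.9 to 105.4 in KBM5, all below background. PFKP was 3.65-fold higher, PDHA1 3.81-fold and TALDO1 2.33-fold higher in K562, in each case with no overlap between the lines' arrays. LDHA was 2.08-fold higher (adjusted p = 0.0176), its arrays overlapped, and the call was lost when any 1 array other than a control was left out (adjusted p up to 0.0743). This fold is a mean over treatments. LDHA in K562 and KBM5 was 82676 and 68215 in the control, and 126751 and 63446 with OR21. With IM these values were 15683 and 6228, and with the combination 26319 and 8553. PFKFB2 was called higher and PDK3 lower in K562, the first at background in KBM5 and the second at background on all 8 arrays, so no fold is given. HK2 was 4.08-fold lower in K562 (adjusted p = 0.00357), with 2 of 4 K562 and 3 of 4 KBM5 arrays above background. PKM was 5.98-fold lower (adjusted p = 0.00805) and TKT was 2.76-fold lower (adjusted p = 0.00691). The PKM fold is a mean over treatments, and the IM effect on PKM itself differed between the lines. PKM in K562 and KBM5 was 17054 and 33808 in the control, and 8299 and 29363 with OR21. With IM these values were 1546 and 15652, and with the combination 994 and 17928. The arrays of TKT did not overlap between the lines, and those of HK2 and PKM did.

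Of 38 listed glycolytic and pentose phosphate genes that are not members, 35 were measured and 14 were above background on any array, and IM lowered 4 and raised 1 in the model of both lines, where 4.87% of all genes were lower and 2.75% higher. RPIA, which makes ribose phosphate, fell by 2.08 ± 0.34 (adjusted p = 0.0196), a size that is not exact with 2 of 4 IM arrays above background. PRPS2, which activates it for nucleotide synthesis, fell by 1.20 ± 0.22 (adjusted p = 0.0278). PGAM5, a mitochondrial phosphatase, fell by 1.72 ± 0.27 (adjusted p = 0.0185). With each array left out in turn, RPIA lost its call in 5 of 8 refits, and PRPS2 and PGAM5 in 6. PGAM4, a close copy of PGAM1 whose signal the arrays may not separate from it, was called at -1.08 ± 0.23 but was below background on all 8 arrays. In K562 IM raised 5 of these genes and lowered 5, and in KBM5 it raised 2 and lowered 7, against shares over all genes of 5.34% higher and 8.05% lower in K562 and 10.8% higher and 10.6% lower in KBM5. Of those called in K562, H6PD, TIGAR, PGAM4 and FBP2 were below background on all 4 arrays, and of those called in KBM5, PGM1 and PGAM4 were. PRPS1, the related synthetase, was at least 10.8-fold lower with IM in KBM5 (adjusted p = 1.21e-05), and its difference between lines was 3.49 ± 0.42. BPGM, which makes the bisphosphoglycerate that loosens oxygen from haemoglobin, was 3757 with the combination and 4060 with IM in K562, against 990 with OR21 and 967 in the control, 3.99-fold higher (adjusted p = 0.000451). BPGM in KBM5 was 243 with the combination and 110 with IM, against 513 with OR21 and 267 in the control, and the difference between lines was 3.18 ± 0.33 (adjusted p = 0.000385). TKTL1, a transketolase-like gene, was 26951 with the combination and 11442 with OR21 in K562, against 524 with IM and 389 in the control. It was 38.9-fold higher with OR21 in K562 (adjusted p = 1.58e-05), and the OR21 effect differed between the lines by 4.03 ± 0.38 (adjusted p = 0.00282). In KBM5 TKTL1 was 3514 with the combination and 1604 with OR21, against 1320 with IM and 751 in the control.

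Of 24 measured genes of pyruvate entry and the tricarboxylic acid cycle, 3 fell with IM over both lines and 0 rose, where 4.87% of all genes fell and 2.75% rose: DLAT, the acetyl transferase core of pyruvate dehydrogenase (-1.86 ± 0.33), IDH3A (-1.22 ± 0.27) and MDH2 (-0.81 ± 0.18). In K562 2 fell and 0 rose, beside 8.05% and 5.34% of all genes. In KBM5 4 fell, among them DLAT at least 2.12-fold and PC below background on all 4 arrays, and 2 rose, beside 10.6% and 10.8%. Of 19 measured hypoxia-response genes outside glycolysis, 3 fell and 0 rose: AK4 (-1.99 ± 0.25), DDIT4 (-1.65 ± 0.34) and ERO1A (-1.63 ± 0.18). The sizes of DLAT and AK4 over both lines are not exact, with 2 of 4 IM arrays above background for each. In K562 6 fell and 2 rose, with BHLHE40 at -2.34 ± 0.23 and DDIT4 at -2.40 ± 0.42, and in KBM5 5 fell and 0 rose, with P4HA1 at -2.94 ± 0.30 and BNIP3 at -2.87 ± 0.34. The calls of DDIT4, IDH3A and MDH2 over both lines were lost when any 1 of the 8 arrays was left out (adjusted p up to 0.109, 0.14 and 0.184). DLAT lost its call in 6 of the 8 refits, AK4 in 4 and ERO1A in 2 (adjusted p up to 0.0988, 0.0646 and 0.0572). Of 18 measured regulators of glucose use, 3 rose and 1 fell. MYC fell by 2.31 ± 0.21 (adjusted p = 0.00565), with 2768 and 1918 in K562 with the combination and IM, against 11202 with OR21 and 12058 in the control. MYC in KBM5 was 3178 with the combination and 4122 with IM, against 15088 with OR21 and 20650 in the control, with no overlap in either line. TXNIP, which restrains glucose uptake, rose by 2.44 ± 0.28 (adjusted p = 0.00915). It was 18914 and 19783 in K562 with the combination and IM, against 5571 with OR21 and 5072 in the control, and in KBM5 35333 with the combination and 33628 with IM, against 3701 with OR21 and 4922 in the control. ARNT, the partner of the hypoxia-inducible factors, rose by 1.28 ± 0.20 and FOXO3 by 0.85 ± 0.18. In K562 4 regulators rose and 4 fell, beside 5.34% and 8.05% of all genes, and in KBM5 8 rose and 1 fell, beside 10.8% and 10.6%. Of those higher in KBM5, MLXIP, EPAS1 and ARRDC4 were below background on both arrays without IM and above it on 1 with IM. With values below background set to it, the MLXIP call was lost. EPAS1, among those lower in K562, was below background on both K562 arrays with IM. MYC kept its call with each array left out, TXNIP lost it without KBM5 IM (adjusted p = 0.0517), ARNT lost it in 7 of 8 refits and FOXO3 in 8.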

How the data were processed

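Biotin-labelled total RNA of both lines was hybridised to expression arrays, per the labels. The authors deposited a linear intensity per probe set. How it was summarised and normalised is not stated in the sources used. The members and gene lists were chosen with earlier results of these data known. Of 24351 probe sets, 17709 carried 1 gene symbol in the supplied annotation, giving 17687 genes, and the brightest probe set was used for each. Intensities were taken as log2(value) and fitted with limma 3.58.1 in R 4.3.3. The model of both lines held line and treatment (3 residual degrees of freedom, 3.77 prior). The model by line had a baseline, an OR21 and an IM term for each line (2 residual, 8.31 prior), so the 2 array pairs of a drug served as repeats. There were 13 contrasts, with p-values adjusted by Benjamini-Hochberg over all genes and called under 0.05. Where one side was below background on all its arrays, a fold is a bound against the background. All members were named, and from each other list up to 4 called genes with the largest change per contrast. The number of arrays limits the precision. The fits were tested on simulated data with independent noise, the same IM effect in both lines and no OR21 effect. That test cannot show how the fits do where the lines differ or the drugs do not add. Alternatives were the brighter genes alone, quantile normalization, a floor at background, log2(value + 16), trended and robust moderation, the mean of probe sets, the line left out, a common OR21 by IM term, and each array left out.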

Additional observations from a re-analysis of the deposited data

Results flagged for a closer look

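For 3 members the IM effect differed between K562 and KBM5 by the test of the difference itself (limma adjusted p under 0.05). Of all genes, 4.9% were called higher and 5.25% lower by that test. The difference was 2.69 for ALDOC and 1.54 for PDK1, which fell in KBM5 and were not called in K562, and -2.35 for PKM, which fell further in K562. With each array left out in turn the call of ALDOC was lost in 4 of 8 refits and that of PDK1 in 6, and PKM kept its call. With log2(value + 16) the calls of ALDOC and PDK1 were lost too (adjusted p = 0.0781 and 0.0745), and with trended and robust moderation that of ALDOC (adjusted p = 0.0894). Among members above background on at least 1 array, 3 had every array pair of K562 moving one way with IM and every pair of KBM5 the other way, with the difference not called: PFKM (0.86, adjusted p = 0.137), PFKFB2 (-0.32, adjusted p = 0.633) and PGD (-0.67, adjusted p = 0.283). PFKFB3, below background on all 8 arrays, did so too (-1.01, adjusted p = 0.0854). The same held for OR21 in PFKM (-1.07, adjusted p = 0.422), PFKFB2 (0.63, adjusted p = 0.714), PGAM1 (-0.67, adjusted p = 0.723) and LDHB (0.24, adjusted p = 0.913). PFKM and PFKFB2 were below background on all KBM5 arrays. The share of all genes with pairs opposed in this way is not given here, so the pattern is not read as a trait of these members.

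Among genes that are not members and were above background on at least 1 array, the IM effect differed between K562 and KBM5 by 4.47 for PKLR, 3.49 for PRPS1, 3.18 for BPGM and -2.65 for TIGAR. Among hypoxia-response genes the difference was 2.69 for ADM, 2.62 for BNIP3, 2.57 for P4HA1 and -1.74 for EGLN3. It was 1.32 for DLAT, -2.56 for EPAS1, -1.93 for MAX, -1.89 for MLXIP and 1.66 for ARRDC4. The OR21 effect differed by 4.03 for TKTL1. Of these 14 genes, BNIP3, P4HA1, MAX and TKTL1 were above background on all 8 arrays, and for the other genes the size is not exact. ADM was below background on all K562 arrays, PKLR and EGLN3 on all KBM5 arrays, and PRPS1 and DLAT on both KBM5 arrays with IM. In KBM5, EPAS1, MLXIP and ARRDC4 were above background on 1 of 4 arrays and BPGM on 3, and EPAS1 was above it on 2 of 4 in K562. TIGAR was above background on 1 of 8 arrays. With each array left out in turn, the calls of the difference for DLAT and ADM were lost in 6 of 8 refits (1.31 to 4.08 for ADM), those for MLXIP and ARRDC4 in 4, and those for BNIP3, P4HA1, EGLN3 and MAX in 2. The calls of PKLR, PRPS1, BPGM, TIGAR, EPAS1 and TKTL1 were kept in those refits. Under log2(value + 16) ADM (adjusted p = 0.113) and TKTL1 (adjusted p = 0.0689) lost theirs, and with values below background set to it EGLN3 (adjusted p = 0.335) and MLXIP (adjusted p = 0.2) did, and DLAT and TIGAR turned sign. No group had a second array, so no array could be tested as standing apart from its group.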

How the results depend on the processing

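No paired analysis was possible because each group had 1 array, so the shared replicate number pairs nothing, and the line took the place of a block. With no replicate block (the line left out), the members called for IM over both lines were 0, against 9. With values below background set to it, which gives most genes 1 value per array, the members called were 16 for IM over both lines, 13 for the combination against control, 10 for the combination against OR21, 18 for IM in K562, 3 for OR21 in K562, 5 for OR21 in KBM5, 15 for the difference of the IM effect between lines and 3 for that of OR21, against 9, 0, 0, 9, 0, 0, 3 and 0. With trended and robust moderation they were 1 for the combination against control, 1 for the combination against OR21, 2 for OR21 in KBM5 and 6 for the IM difference, and among the brighter genes alone 5 for the IM difference. With each array left out in turn they were 3 to 8 for IM over both lines, 3 to 10 for IM in K562, 11 to 16 for IM in KBM5 and 1 to 6 for the IM difference. Of 49 calls of members, 307 of 331 repeats under other settings kept the call, 22 lost it and 2 reversed. With arrays left out 301 of 392 kept it and 91 lost it. Each measured member had 1 probe set, so the mean of probe sets left its values the same and was hardly a test of its call. The brighter genes alone also left a member's values the same and changed only the moderation and the adjustment. The 331 repeats are therefore not all separate checks. In the model by line, leaving out an array of the other line does not change a line's estimate. Leaving out an array of the same line leaves 1 of its 2 array pairs as the estimate. The 392 refits are therefore not separate checks. The reversed values all came with the floor at background: PFKFB2 between lines -0.15, HK1 with IM in KBM5 -0.081, PGAM4 with IM over both lines 0.052, TIGAR with OR21 in KBM5 -0.22, and TIGAR 0.13 and DLAT -0.12 for the IM difference. There the floor removes the values below background on which these calls rest. ALDOC lost its call over both lines under quantile normalization, log2(value + 16) and trended moderation, and quantile normalization ended the calls of GPI and TPI1 in K562 and of PKM and LDHB in KBM5. With log2(value + 16) the calls of HK1 and HK2 with IM in KBM5 (adjusted p = 0.0625 and 0.0754) and of ALDOC and PDK1 for the IM difference were lost, with trended moderation that of ALDOC for the IM difference, and with the floor that of PDK3 between lines (adjusted p = 0.106). The cause was not tested.

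Over all genes, IM over both lines called 1349, 115 to 557 with an array left out, 2899 with the floor and 0 without the line. IM in K562 called 2368, 454 to 3201 with an array left out and 3657 with the floor. The IM difference called 1796, 611 to 1804 with an array left out and 3275 with the floor. The combination called 35 genes against control and 39 against OR21, with 0 to 1582 and 0 to 1332 over the other settings. OR21 called 16 in K562 (4 to 246), 96 in KBM5 (3 to 996) and 18 for the difference (2 to 545). Under quantile normalization the share of calls that were higher was 48.7%, against 36.1%, for IM over both lines, 50.5%, against 39.9%, for IM in K562, 41.7%, against 31.4%, for the combination against control and 43.8%, against 23.1%, for the combination against OR21. The signs of PFKFB3, PGD and TALDO1 over both lines and of PFKL and TKT in K562, none of them called for IM there, turned under it. Signal near background limits HK2 with IM in K562, PFKM in KBM5 and the K562 baseline of PDK2.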
